A study of Saccharomyces cerevisiae with 12 samples.

Results

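The comparison described here set an abf1 temperature-sensitive (ts) mutant of budding yeast against its own wild-type control after a heat shift, and its members were taken by sample title: 3 arrays of the mutant and 3 of the wild type, 6 of the 12 arrays in the series. Per the labels, cultures of both groups had grown at 25 C and were held at 37 C for 1 h before total RNA was taken. The mutant Abf1 protein is taken to lose its DNA binding at that temperature, but binding was not measured on these arrays. The other 6 arrays, 3 of a rap1 ts mutant and 3 of its own wild type under the same heat shift, serve below as the nearest comparison. The sources used here do not give the alleles, the strain background or the number of cultures. Nothing says that arrays came from separate cultures, so the p-values reflect array-to-array spread alone, which may be technical.

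Abf1 (autonomously replicating sequence-binding factor) is an essential DNA-binding protein of budding yeast. It is one of the general regulatory factors, abundant proteins that bind many promoters and keep nucleosomes away from their sites, and it also binds replication origins and the silencers of the silent mating loci. Its known promoter targets belong to many processes, among them ribosome and RNA polymerase synthesis, amino acid synthesis and respiration. The comparison asks which RNAs differ 1 h after the protein has lost its binding, with the heat shift itself shared by both groups.

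Signals are MAS5 intensity values whose trimmed mean lay between 1500.7 and 1501.3 on each of the 12 arrays. The median signal lay between 479.3 and 595.8 in abf1 ts and between 493.6 and 545.5 in the wild type. Of 6832 probe sets that name a gene, 5859 features were formed, each a gene or a set of genes that share a probe set, and 4687 were tested, those whose mean log2(signal + 13) reached 8.16. The ratio of 3' to 5' signal along ACT1 (actin), a sign of RNA integrity, was 32.7, 3.47 and 4.41 in the 3 abf1 ts arrays, against 8.73, 11.4 and 17.4 in the wild-type arrays (exact permutation p = 0.6, where the smallest possible is 0.1). For SPT15 the ratio was 16.2, 4.51 and 3.68 in abf1 ts against 4.65, 7.08 and 5.62 in the wild type (exact p = 1.0), and for SRB4 it was 336.8, 121.3 and 45.4 against 79.7, 99.7 and 701.4 (exact p = 0.7). The first ts array had the highest ratio of the 6 for ACT1 and SPT15 and the third wild-type array for SRB4, and POP8, NIT3 and PRO3 are given without it as well. The mating type was the same in both groups: MFA1, which encodes the pheromone a-factor, had 14740, 6867 and 15748 in abf1 ts and 7660, 13419 and 18421 in the wild type, whereas MF(ALPHA)1, the alpha-factor gene, stayed at or below 205.9 in all 6 arrays.

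The heat-shifted abf1 ts mutant showed few significant changes against its wild type, and those that passed the test were all decreases in single genes. POP8, which encodes a protein subunit of RNase P and RNase MRP, the ribonucleoprotein enzymes that process transfer RNA and ribosomal RNA precursors, and NIT3, which encodes a member of the nitrilase family, fell by limma without regard to the replicate number. These 2 of 4687 features are 0.0427% of those tested, and 0 (0%) were higher. The mutant and wild-type arrays of the same number deviated together from their group means, so a second fit took the number as a block. With this replicate block 10 features fell, 0.213% of those tested, and 0 (0%) rose. The other 8 were PRO3, EMC3, SSF2, DUG1, YKL069W, IPP1, KAP120 and YPR148C, and all 10 were lower in 3 of 3 pairs of arrays.

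POP8 had signals of 372.5, 659.4 and 289.3 in the 3 abf1 ts arrays, against 4345, 2030 and 2800 in the wild type. The groups were far apart, with the highest mutant array below the lowest wild-type array. The log2 fold change was -2.77 (SE 0.40, limma adjusted p = 0.0229; with the block SE 0.32, adjusted p = 0.0124), a 6.84-fold difference.

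NIT3 had 1266, 1572 and 844.1 in abf1 ts, against 4635, 5738 and 4198 in the wild type. Its 3 pairs of arrays gave similar differences, -1.86, -1.86 and -2.30 on the log2 scale. The log2 fold change was -2.01 (SE 0.27, adjusted p = 0.0195; with the block SE 0.19, adjusted p = 0.00425). Without the first ts array it was -2.05 for NIT3 and -2.70 for POP8, and neither then passed the test (limma adjusted p = 0.0950 and 0.168). Leaving out ts array 3 or any 1 wild-type array also left 0 features called, and leaving out ts array 2 gave 10. With the block, the count of 10 was 0 without pair 1, 12 without pair 2 and 0 without pair 3.

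PRO3, which encodes pyrroline-5-carboxylate reductase, the last enzyme of proline synthesis, had 222.5, 2096 and 773.5 in abf1 ts, against 4235, 4849 and 4425 in the wild type. The wild-type arrays lay close together and the mutant arrays spread widely, so that the pair differences ran over -4.17, -1.21 and -2.50. With the block PRO3 fell by 2.62 on the log2 scale (blocked SE 0.43, adjusted p = 0.0494; adjusted p = 0.234 without the block). Without ts array 1, and with no block, its log2 fold change was -1.81.

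EMC3, a subunit gene of the endoplasmic reticulum membrane protein complex that inserts proteins into that membrane, had 438.1, 1011 and 237.2 in abf1 ts, against 2019, 1915 and 1608 in the wild type. The mutant arrays again lay below all wild-type arrays. EMC3 fell by 1.93 with the block (blocked SE 0.30, adjusted p = 0.0419).

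SSF2, which encodes an assembly factor of the large ribosomal subunit, had 317.1, 260.2 and 472.2 in abf1 ts, against 1133, 794.7 and 1689 in the wild type, and fell by 1.72 with the block (blocked SE 0.23, adjusted p = 0.0207). Its probe set is of a type that close relatives can share, and SSF2 has a near copy, SSF1. SSF1 had 5387, 1329 and 4557 in abf1 ts and 4472, 1768 and 6103 in the wild type, which overlap (log2 fold change -0.19, adjusted p = 1.00). A second SSF2 probe set was also lower, with 362.8, 156.8 and 218.8 in abf1 ts against 587.6, 241.1 and 773.0 in the wild type (log2 difference -1.01).

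DUG1, which encodes the Cys-Gly dipeptidase of glutathione breakdown, had 1120, 3984 and 2911 in abf1 ts, against 4432, 9047 and 8107 in the wild type. Array 1 was the lowest in both groups, and the pair differences of -1.97, -1.18 and -1.47 are close to one another. DUG1 fell by 1.54 with the block (blocked SE 0.19, adjusted p = 0.0173), against an SE of 0.40 and an adjusted p of 0.361 without it.

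YKL069W, which encodes a reductase of oxidised free methionine, had 1817, 1904 and 1242 in abf1 ts, against 5514, 3848 and 3737 in the wild type (log2 fold change -1.39, blocked SE 0.18, adjusted p = 0.0176). IPP1, the cytosolic inorganic pyrophosphatase gene and the brightest of the 10, had 5004, 11576 and 6581 in abf1 ts, against 18135, 19561 and 17669 in the wild type (-1.34, blocked SE 0.21, adjusted p = 0.0419). In both genes every mutant array lay below every wild-type array. KAP120, which encodes a nuclear import receptor, had 257.0, 435.8 and 334.3 in abf1 ts, against 748.2, 1014 and 859.1 in the wild type (-1.34, blocked SE 0.21, adjusted p = 0.0419). YPR148C, whose function is not well known, had 1304, 1294 and 1387 in abf1 ts, against 3052, 2886 and 4020 in the wild type (-1.30, blocked SE 0.20, adjusted p = 0.0419). Its 3 mutant arrays were the most alike of any of the 10 genes.

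**Figure D1:**
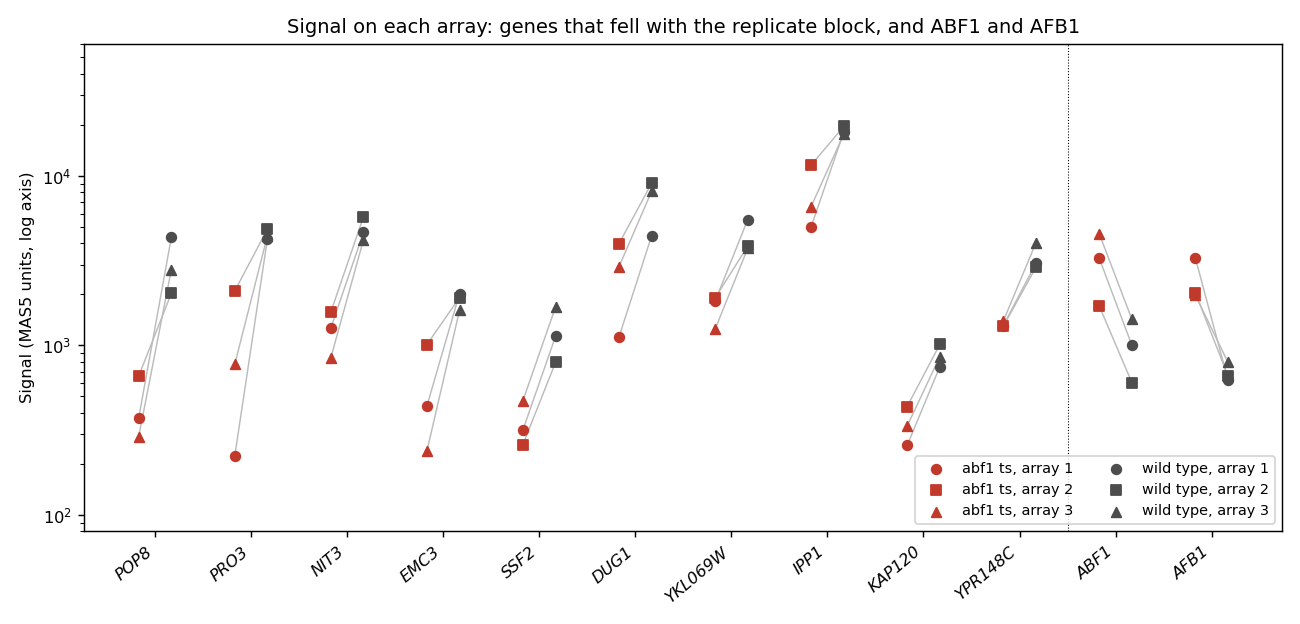
Signal of each gene on each array (log axis), with abf1 ts in red on the left, wild type in grey on the right and lines joining arrays of the same number. The first 10 genes fell with the replicate block, and in each the highest mutant array lies below the lowest wild-type array; ABF1 and AFB1, right of the dotted line, were higher in abf1 ts on all arrays without passing the test.

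The mutated gene itself was higher in the mutant on every array. ABF1 had 3263, 1707 and 4557 in abf1 ts, against 1001, 602.8 and 1423 in the wild type, so the groups did not overlap, and the 3 pair differences of 1.69, 1.48 and 1.67 were alike. The log2 fold change of 1.61 did not pass the test (SE 0.62, limma adjusted p = 1.00; with the block SE 0.32, adjusted p = 0.102). In 3 other blocked fits it did: adjusted p was 0.0216 after quantile scaling, 0.0364 after median centring and 0.0261 on the 6 arrays alone. The level of an RNA from this probe set does not show which allele or how much active protein is present.

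AFB1, which encodes an a-factor barrier protein known from alpha cells, had the largest positive difference of the named genes, with 3286, 2046 and 1985 in abf1 ts against 624.8, 661.3 and 794.4 in the wild type. The log2 fold change was 1.76 (SE 0.44, limma adjusted p = 0.343; with the block SE 0.37, adjusted p = 0.120), and it passed in the same 3 blocked fits as ABF1, with adjusted p of 0.0217, 0.0364 and 0.0491. The alpha-specific genes measured beside it had low levels in both groups, and only SAG1 was bright enough to be tested. STE3, the a-factor receptor gene, had 114.5, 107.3 and 180.4 in abf1 ts against 94.4, 68.1 and 67.9 in the wild type. Its groups did not overlap, so it was higher in abf1 ts, as AFB1 was. MF(ALPHA)1 had 193.3, 205.9 and 134.8 against 130.9, 178.9 and 94.8, higher in each pair but with overlap. SAG1, the alpha-agglutinin gene, had 242.0, 473.5 and 454.0 against 262.2, 300.6 and 308.0, with overlap. MF(ALPHA)2 had 66.0, 100.7 and 49.2 against 50.9, 52.8 and 62.7, also with overlap.

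No other gene with a higher signal passed the test. The next in size among genes with an unadjusted p under 0.05 without the block and groups that did not overlap were YER188C-A (1.13), the sulfiredoxin gene SRX1 (1.03), DAL3 of allantoin breakdown (1.03), CPP3 (1.02), YAL063C-A (0.96), MET22, whose product removes a nucleotide by-product of sulfate assimilation (0.83), TRS65 of vesicle transport (0.67) and the histidine synthesis gene HIS3 (0.59). None reached the threshold without the block, where the lowest adjusted p was 0.361, for DAL3. DAL3 had 1708, 2812 and 2335 in abf1 ts against 1246, 1015 and 1034 in the wild type. The probe sets of YER188C-A and YAL063C-A are of the type shared by close relatives. Another YER188C-A probe set had 696.8, 962.0 and 344.0 in abf1 ts against 460.2, 951.8 and 472.3 in the wild type. Its log2 difference was 0.05, and that of a further, dim one was 0.75. The other probe sets of YAL063C-A had 1.30 and 0.85, and that of HIS3 had 0.75.

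Across all tested features, large differences were more often decreases than increases. The median log2 fold change was -0.03, and 54.5% of features lay below 0. A difference of at least 2-fold was seen for 51 features below 0 and 10 above 0. An unadjusted p under 0.05 was reached by 132 lower features (2.82%) and 13 higher (0.277%) without the block, and 273 lower (5.82%) and 80 higher (1.71%) with it. The groups did not overlap in 250 features that were lower (5.33%) and 107 that were higher (2.28%) in abf1 ts. Of the 132, 27 lay among the dimmest 1563 features, 50 among the middle 1562 and 55 among the brightest 1562.

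**Figure D2:**
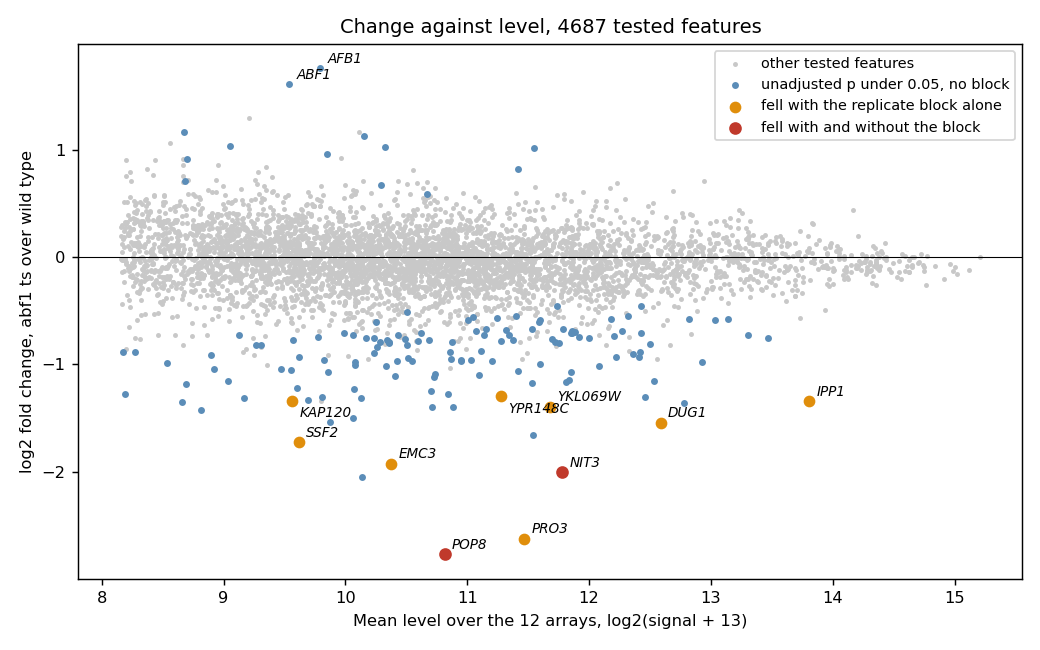
Log2 fold change of abf1 ts over wild type against the mean level of each of 4687 features, log2(signal + 13). Blue points have an unadjusted p under 0.05 (132 below 0 and 13 above), orange points fell with the replicate block alone and red points with and without it.

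Some lower genes had an unadjusted p under 0.05 without the block and no overlap of groups but were not called. Those with the largest differences were SCS22, PLN1, MRPL32, CMI8, TPM2 and SWS2. SCS22, which encodes a protein that tethers the endoplasmic reticulum to the plasma membrane, had 230.5, 884.7 and 312.3 in abf1 ts, against 1752, 1636 and 1713 in the wild type (log2 fold change -2.05, limma adjusted p = 0.234; 0.0850 with the block). PLN1, a lipid droplet protein gene, had -1.66, CMI8 -1.50 and TPM2, a tropomyosin gene, -1.42, with adjusted p of at least 0.679 without the block. MRPL32 and SWS2, which encode proteins of the mitochondrial ribosome, had -1.54 and -1.40. In 8 of the 10 genes that fell with the block, and in 71 of the 119 lower features with an unadjusted p under 0.05 and groups apart, ts array 2 was the mutant array nearest to the wild type. Over those 119 features the median pair difference was -1.19, -0.58 and -1.02 for pairs 1, 2 and 3.

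Genes whose products work with those of the falling genes were followed next, from the same lists. Of 11 genes for protein subunits of RNase P and RNase MRP, 9 were tested, and the other 8 had log2 fold changes between -0.14 for POP1 and 0.08 for RPP1, with 0 called in either fit. Of the 8 genes of the endoplasmic reticulum membrane complex, all tested, the other 7 lay between -0.47 for EMC2 and 0.17 for EMC1, with 0 called. PRO1 and PRO2, the genes of the earlier proline enzymes, had -0.25 and -0.01 (adjusted p = 1.00 each). The 11 tested genes of arginine and proline synthesis had a median of -0.09 and 1 call, PRO3, with the block.

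The list of nitrilases and glutathione breakdown held 7 genes, of which 6 were tested. Its members NIT3 and DUG1 fell, whereas NIT2 had 0.01, DUG2 -0.12 and DUG3 0.02. In the genes of glutathione synthesis and thiol redox, 11 of 12 tested, 0 were called and the median was 0.01. Among 20 tested nuclear transport receptors and Ran cycle genes, KAP120 was the 1 that fell, and the list's median was -0.02. Next to KAP120 stood KAP123, another import receptor gene, at -0.47 (adjusted p = 1.00).

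Genes whose promoters have been tied to Abf1 in earlier single-gene studies were followed as a list drawn from general knowledge. It held 24 genes, of which 18 features were tested, and 0 passed the test in either fit. Their median log2 fold change was -0.11, against -0.03 for all features, and 12 of 18 lay below 0. Without the block an unadjusted p under 0.05 was reached by 2 (11.1%, against 2.82% of all features), both lower: ARO3, which encodes an entry enzyme of aromatic amino acid synthesis (-0.93, SE 0.41), and RPO31, the largest subunit gene of RNA polymerase III (-0.67, SE 0.24). With the block CAR1, the arginase gene, was added as a higher one (0.40, limma adjusted p = 0.629 with the block). RPO31 had 1454, 1403 and 1841 in abf1 ts against 2404, 2045 and 3105 in the wild type, with no overlap. The ribosomal protein genes RPL3 and RPS28A had -0.02 and -0.12, the respiratory genes COX6 and QCR8 -0.20 and -0.18, and SPT15, the TATA-binding protein gene, -0.35. The general regulatory factor genes RAP1 and MCM1 had -0.33 and -0.37 (adjusted p = 1.00 each).

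Among the larger gene groups, those for making ribosomes had medians below that of all features. Of 66 tested mitochondrial ribosomal protein genes, 61 (92.4%, against 54.5% of all features) lay below 0 and the median was -0.27, with pair medians of -0.23, -0.27 and -0.29. None passed the test, 6 (9.09%, against 2.82% of all features) were lower at an unadjusted p under 0.05 without the block and 12 (18.2%, against 5.82%) with it, and the groups were apart in 8 (12.1%, against 5.33% of all features). MRPL33 had 2368, 1979 and 1561 in abf1 ts against 6222, 2951 and 4489 in the wild type (log2 fold change -1.16, adjusted p = 0.397). Leaving out ts array 1 gave a list median of -0.45, leaving out ts array 2 gave -0.07, leaving out wild-type array 1 gave -0.11 and leaving out wild-type array 2 gave -0.49.

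The 77 ribosome biogenesis genes had a median of -0.25, with 69 below 0 and pair medians of -0.11, -0.32 and -0.28. SSF2 was the 1 member that fell, with the block, and 17 (22.1%, against 5.82% of all features) were lower at an unadjusted p under 0.05 in that fit. LTV1, an export factor gene of the small subunit, had 1716, 1309 and 866.3 in abf1 ts against 2610, 2123 and 3514 in the wild type (-1.10, adjusted p = 0.751; 0.158 with the block). Without ts array 2 the median was -0.09. The 32 tested translation factor features had a median of -0.16 and 0 called, with HCR1 of initiation factor eIF3 at -0.88.

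Other groups are given by their medians. The 117 cytosolic ribosomal protein features had a median of -0.07, the 31 RNA polymerase subunit genes -0.13, the 19 aminoacyl-tRNA synthetase genes -0.10 and the 14 tested phosphate and pyrophosphate genes -0.21, where IPP1 fell with the block. DPS1, the aspartyl-tRNA synthetase gene, had -1.16 (adjusted p = 0.571; 0.0563 with the block). Glycolysis genes (0.01), the respiratory chain and ATP synthase (-0.01), heat shock proteins and their cochaperones (0.02), ergosterol synthesis (-0.05) and the proteasome (0.10) held no called member. General stress-induced genes had a median of 0.20, and leaving out ts array 2 gave -0.06 and leaving out wild-type array 1 gave -0.02. Amino acid synthesis outside the arginine and proline pathways had 0.12, with 36 of 54 features above 0.

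Processes in which Abf1 protein itself takes part were measured through their genes. The 19 tested replication initiation genes had a median of -0.11, the 16 of nucleotide excision repair -0.10 and the 9 of silencing and telomere binding -0.11, each with 0 called. Leaving out ts array 2 gave 0.16 for the replication list and 0.04 for the repair list, and leaving out wild-type array 3 gave 0.07 for the replication list. SUM1, a repressor gene of that last list, had 2454, 1995 and 1804 in abf1 ts, against 3194, 2612 and 3347 in the wild type (log2 fold change -0.55, adjusted p = 1.00). Of 22 meiosis and sporulation genes only NDT80 exceeded the minimum level, so the list says nothing of their repression.

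Marker genes that laboratory strains often carry as mutant alleles were also measured, and none of the 8 passed the test in either fit. LEU2, of leucine synthesis, had 13356, 14808 and 14124 in abf1 ts against 6515, 12107 and 8093 in the wild type (log2 fold change 0.71, adjusted p = 1.00; 0.259 with the block), with no overlap, and its other probe sets had log2 differences of 1.31 and 1.24. HIS3 had 1602, 1590 and 2109 in abf1 ts against 1380, 990.8 and 1133 in the wild type. URA3 (-0.27), LYS2 (-0.10), ADE2 (-0.07), TRP1 (0.37) and MET17 (0.40) overlapped between the groups. Whether the strains differ at these genes was not tested.

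**Figure D3:**
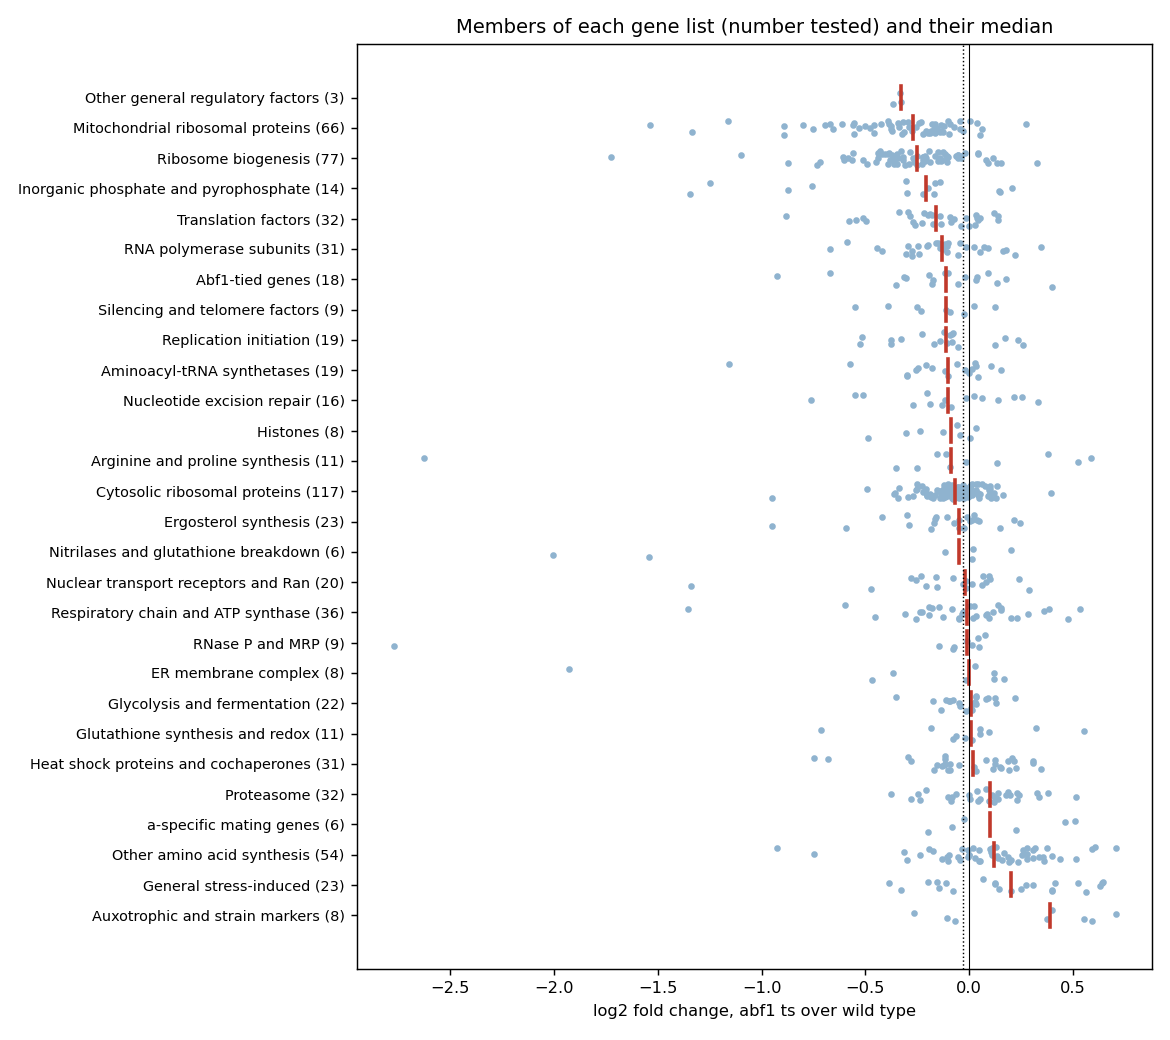
Log2 fold change (abf1 ts over wild type) of each tested member of the gene lists with at least 3 tested members, with the list's median as a red bar and its number of features in brackets; the dotted line is the median of all features, -0.03. Members of most lists scatter around the dotted line, while POP8, PRO3 and EMC3 stand apart from the other members of their lists. NIT3 and DUG1, which share a list, stand apart from its remaining members.

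Neighbouring genes were compared for the 10 genes that fell. The next gene upstream was taken from a gene table of assembly R64. It was divergent, that is on the opposite strand, for 4 of the 10 (40%), against 52.5% of 4476 tested genes. Whether such pairs share a start region was not measured. Upstream neighbours were tested for 8 of the 10, and none was called. NIT3 and its divergent neighbour LUG1 had -2.01 and 0.28, and DUG1 and MRX20 had -1.54 and 0.05. YPR148C had -1.30 beside 0.69 for NCE102. On the same strand, SSF2 had -1.72 beside -0.76 for TFB1, whose groups did not overlap, EMC3 had -1.93 beside -0.52 for CBT1, and POP8 had -2.77 beside -0.46 for PEP1. KAP120 had -1.34 beside -0.25 for NAN1, and PRO3 had -2.62 beside 0.52 for SRB4. The falling genes had a median length of 870 bases, against 1239 for all tested genes, and the 132 lower features at an unadjusted p under 0.05 had 937.5. The 11 single genes that were higher at that p had 663, so a short length was not particular to genes that fell.

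The change in abf1 ts was set against that in rap1 ts, each relative to its own wild type, so the comparisons share no arrays. The median size of the log2 fold change was 0.17 in abf1 ts and 0.42 in rap1 ts. At least 2-fold differences were seen for 51 lower and 10 higher features in abf1 ts, and for 271 lower and 263 higher in rap1 ts. Without a block 0 features (0%) differed between the 2 effects (limma, lowest adjusted p 0.0969; at an unadjusted p under 0.05 the abf1 effect was lower in 385 and higher in 211). With the block the abf1 effect was lower in 291 features (6.21%) and higher in 135 (2.88%). Of the 10 genes that fell in abf1 ts, 8 were among the 291: POP8 had -2.77 in abf1 ts and 0.19 in rap1 ts, NIT3 -2.01 and -0.16, and KAP120 -1.34 and 0.00. IPP1 (-1.34 and -0.38; adjusted p of the difference 0.0660) and PRO3 (-2.62 and -0.52; 0.0555) were not. The 10 genes were chosen by the abf1 effect that also enters this difference, so their overlap with the 291 is partly set by that choice. The count of 426 features in all was 288, 58 and 0 when pair 1, 2 or 3 of the abf1 arrays was left out.

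ABF1 (1.61 in abf1 ts and -0.46 in rap1 ts) and AFB1 (1.76 and -0.33) were among the 135 with the block, with adjusted p of the difference of 0.0345 and 0.0412. The mitochondrial ribosomal protein genes lay in opposite directions in the 2 mutants, with medians of -0.27 in abf1 ts (-0.07 without ts array 2) and 0.78 in rap1 ts. In 20 of the 66 (30.3%, against 6.21% of all features) the abf1 effect was lower with the block, and in 0 it was higher. Wild-type array 2 of the rap1 comparison had the lowest median signal of the 12 arrays, 390.4. It also had the lowest rap1 values for MRPL32 (402.4) and MRPL33 (2209.7). In these genes the other rap1 wild-type arrays also lay below all rap1 ts arrays. The part of that array in the rap1 median was not tested. Ribosome biogenesis genes had medians of -0.25 and 0.25, with 13 of 77 (16.9%) lower. The cytosolic ribosomal protein features had -0.07 and -0.23, with 0 lower and 9 of 117 (7.69%, against 2.88%) higher, and the amino acid synthesis list 0.12 and -0.35, with 6 of 54 (11.1%) higher.

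**Figure D4:**
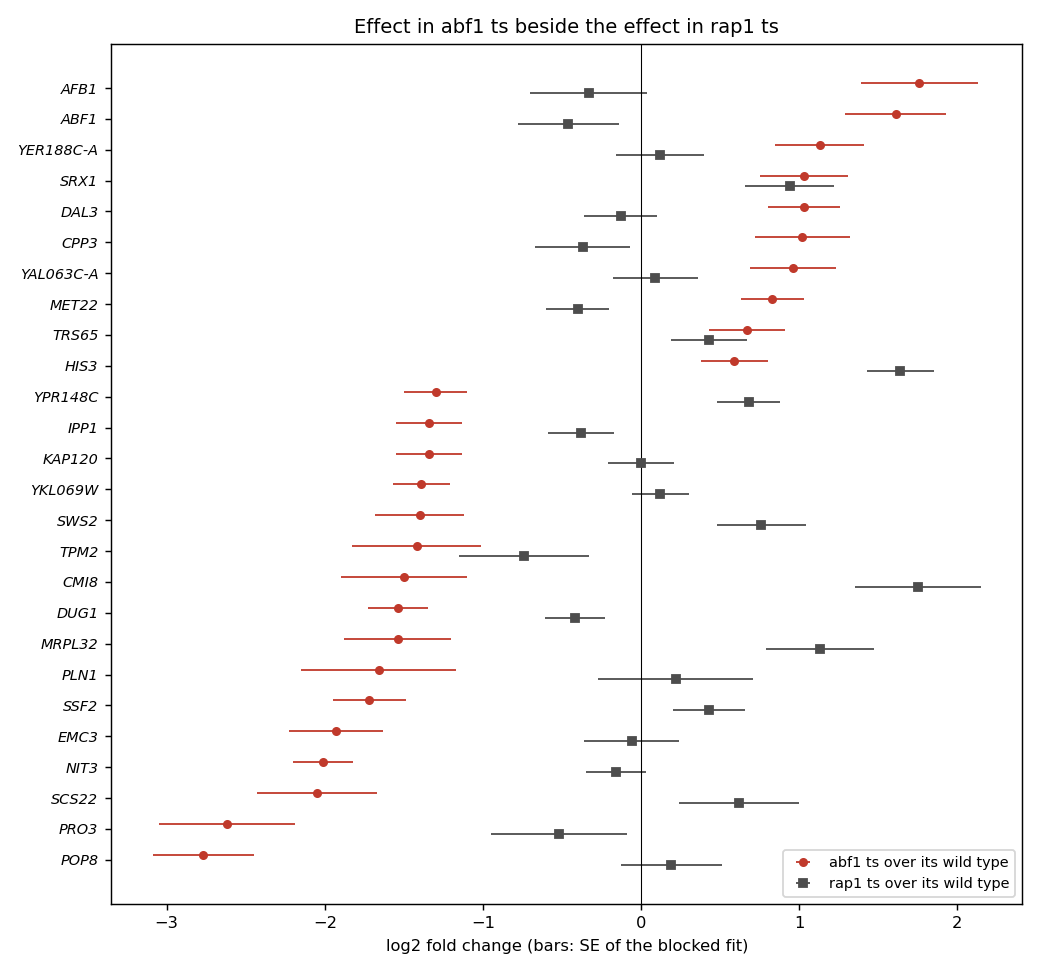
Log2 fold change in abf1 ts over its wild type (red) and in rap1 ts over its wild type (grey), with bars of 1 SE from the blocked fit. The genes are ABF1 and those named for a call or a large difference in abf1 ts. POP8 and NIT3 lie at -2.77 and -2.01 in abf1 ts and at 0.19 and -0.16 in rap1 ts, while SRX1 lies at 1.03 in abf1 ts and 0.94 in rap1 ts.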

How the data were processed

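RNA had been measured on 12 Affymetrix yeast arrays, 3 per group. Per the submitters' processing notes, the deposited intensity values are MAS5 signals; per the values, each array's trimmed mean is near 1501. No further step by the authors is given in the sources used here. Of 9335 probe sets, 60 controls were left out, 6832 name a gene and 2443 do not in the platform table. All 5656 gene IDs matched the R64 gene table. For a gene with several probe sets, the brightest was used. Values were taken as log2(signal + 13), where 13 is the rounded 10th percentile of signals, and features above the 20th percentile of mean level were tested.

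The main test was limma 3.58.1 in R 4.3.3 with 4 group means over 12 arrays, a variance trend and Benjamini-Hochberg adjustment over 4687 features, called at an adjusted p under 0.05. Arrays of the same number deviated together from their group means (correlations 0.574, 0.824 and 0.648 in the abf1 arrays; 0.562, 0.250 and 0.583 in the rap1 arrays), so the numbers were taken to pair them. This comes from the data, not from the labels. The fit with that block is printed where it changes a call. The fits were tested on simulated data that held a replicate effect by design. Without the block, 23 of 67 changes of log2 size 1 and 56 of 67 of size 2 were recovered, and 0 unchanged features were called. With the block, 51 of 67 and 65 of 67 were recovered, and 14 unchanged features were called.

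Genes were named if called in either fit, or by size among those with an unadjusted p under 0.05 and groups apart, and as the extreme members of gene lists; PRO1, PRO2, SSF1, NIT2, DUG2 and DUG3 were added after values were seen. Members and lists were chosen with earlier results of these data known. The number of arrays limits the precision.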

Additional observations from a re-analysis of the deposited data

Results flagged for a closer look

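With the replicate block, the log2 fold change in abf1 ts differed from that in rap1 ts for 30 of the 115 genes chosen by rule or context (limma interaction, adjusted p under 0.05). Over all 4687 features the abf1 effect was lower in 291 (6.21%) and higher in 135 (2.88%) by the same test. Some of the 115 were chosen for a large or called abf1 effect, so they are not a sample of all features. The differences, abf1 effect minus rap1 effect, were negative for POP8 (-2.96), NIT3 (-1.84), EMC3 (-1.87), SSF2 (-2.16), DUG1 (-1.12), YKL069W (-1.52), KAP120 (-1.34) and YPR148C (-1.98), which fell in abf1 ts. They were also negative for SCS22 (-2.67), MRPL32 (-2.67), MRPL33 (-2.17), CMI8 (-3.25), SWS2 (-2.16), LTV1 (-2.01), SSF1 (-1.79), ATP18 (-1.96), ATP14 (-1.0), RMP1 (-1.43), CDC7 (-1.32), RPO31 (-0.96) and HST1 (-0.93). They were positive for ABF1 (2.07), AFB1 (2.10), MET22 (1.22), PRO1 (1.24), RPC40 (1.19), PGI1 (2.24), LEU2 (1.65), MET17 (2.09) and CAN1 (2.16). For some of these genes most of the difference lay in rap1 ts. The abf1 and rap1 effects were 0.22 and -2.02 for PGI1, -0.25 and -1.49 for PRO1 and 0.40 and -1.69 for MET17. They were 0.18 and -1.01 for RPC40 and 0.55 and -1.61 for CAN1. Among the negative differences they were -0.19 and 1.60 for SSF1, -0.08 and 1.36 for RMP1 and -0.23 and 0.70 for HST1. None differed in the fit without the block, where the lowest adjusted p over all features was 0.0969.

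Probe sets that name no gene in the platform table lie outside the comparison above. In a fit over every non-control probe set above the 20th percentile of mean level, a setting chosen after seeing the data, the 1299 unnamed ones had a median log2 fold change of 0.22, against 0.00 for 6121 named probe sets, and 73.5% against 50.1% lay above 0. None was called in either fit (limma, 11 lower and 43 higher at an unadjusted p under 0.05 without the block). The median pair differences were 0.44, 0.11 and 0.10, and in rap1 ts the median was 0.21. The unnamed probe sets were dimmer than the named ones, with a median mean log2 level of 7.66 against 10.08. At mean log2 levels of 8 to 10, 10 to 12 and 12 to 16, their median log2 fold changes in abf1 ts were 0.17, 0.16 and 0.30. Named probe sets at those levels had 0.04, -0.05 and -0.04. Pair 1 holds the ts array with the highest ACT1 ratio, and the part of RNA integrity in this shift was not tested.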

How the results depend on the processing

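The count of 2 lower features was 10 with the replicate block, 16 with the replicate block and quantile scaling, 11 with the block and median centring, 7 with the block on the 6 arrays of the comparison and 5 with the block over every non-control probe set, a setting chosen after seeing the data. It was 0 on the 6 arrays without the block and 0 after median centring. Leaving out 1 array gave 0 to 10, and leaving out 1 pair under the block 0 to 12. The count of 0 higher features was 2 under the block with quantile scaling, with median centring and on the 6 arrays. The count of 0 features whose effects differed between mutants was 4 after quantile scaling and 4 after median centring, 426 with the block, 461 with the block and quantile scaling and 484 with the block and median centring. Leaving out 1 array gave 0 to 3, and leaving out pair 1, 2 or 3 under the block gave 288, 58 and 0. The causes were not tested. Without the block, the other offsets, dim filters, probe set rules, variance model and fold rule kept the counts of 2, 0 and 0 within 1.5 times, and these were not run with the block. The 10 genes lay below 0 in each setting where they were tested. Of 1532 values of 62 genes the text prints, 1418 kept direction and call, 50 gained a call, 18 lost one and 46 changed sign, in 16 genes and never with a call. Their ranges over the fits that leave out 1 array were -0.24 to 0.13 for ADE2, -0.62 to 0.18 for COX6, -0.36 to 0.05 for DUG2, -0.28 to 0.46 for DUG3, -0.06 to 0.33 for EMC1, -0.35 to 0.27 for LYS2, -0.28 to 0.95 for MET17, -0.43 to 0.30 for MFA1, -0.40 to 0.01 for NDT80, -0.07 to 0.13 for NIT2, -0.37 to 0.08 for POP1, -0.07 to 0.09 for PRO2, -0.11 to 0.06 for RPL3, -0.04 to 0.19 for RPP1, -0.71 to 0.44 for SSF1 and -0.13 to 1.03 for TRP1. With the block and without pair 1 the sign also changed for COX6 (0.11), DUG2 (0.03), DUG3 (-0.10), LYS2 (0.02), NIT2 (-0.09) and PRO2 (0.10), without pair 2 for ADE2 (0.25), MFA1 (0.36) and RPL3 (0.03), and without pair 3 for DUG3 (-0.02), NDT80 (0.01) and NIT2 (-0.05). Median centring gave 0.05 for PRO2 and 0.05 for RPL3 with and without the block. The promoter motif comparison and its alternatives were not run, since no promoter sequence was used here.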
